A study of Mus musculus with 6 samples.

Results

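The proteasome subunit genes in mouse heart were taken by symbol, as every protein-coding gene whose name is Psma, Psmb, Psmc, Psmd or Psme followed by a digit. The rule found 45 genes among 54352 in the deposited table. They comprised 7 alpha subunits (Psma1 to Psma7) and 7 constitutive beta subunits (Psmb1 to Psmb7) of the 20S core, 6 ATPases (Psmc1 to Psmc6) and 11 non-ATPase subunits of the 19S cap, which together are called the 31 constitutive 26S genes below. The others were 3 chaperones of the 19S base (Psmd5, Psmd9 and Psmd10), 3 catalytic subunits of the immunoproteasome (Psmb8, Psmb9 and Psmb10), PA28 alpha and beta (Psme1 and Psme2), PA28 gamma (Psme3), PA200 (Psme4), the testis alpha subunit Psma8 and the thymus beta subunit Psmb11. The prefix also took Psme2b, a near copy of Psme2, and Psmc3ip, which encodes a protein of meiotic recombination and not a proteasome subunit.

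The 26S proteasome degrades proteins tagged with ubiquitin. Its 19S cap binds, unfolds and feeds in the substrate, and its barrel-shaped 20S core cuts it at catalytic sites carried by Psmb5, Psmb6 and Psmb7. Interferon signalling replaces these with Psmb8, Psmb9 and Psmb10, and the resulting immunoproteasome, together with the PA28 alpha beta activator, makes peptides for presentation on class I molecules. In cardiac muscle the proteasome removes damaged and surplus sarcomeric and signalling proteins.

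The study measured RNA in hearts of C57BL/6 mice in 3 groups of 2 libraries each, using total RNA depleted of ribosomal RNA. In the T2D dnMCUb group, type 2 diabetes (T2D) was induced at 12 weeks of age with a high-fat diet, which gave 60% of calories as fat, and a single 75 mg/kg injection of streptozotocin, a toxin of the insulin-secreting beta cell. An adeno-associated virus (AAV) was then given through the jugular vein 16 to 18 weeks after streptozotocin. It encoded dnMCUb, a murine MCUb with the dominant-negative (dn) substitutions W246R and V251E and a FLAG tag at its C terminus. MCUb is a paralog of the pore subunit of the mitochondrial calcium uniporter. The T2D empty vector group had the same diet, streptozotocin and timing, with AAV lacking the insert. Both were studied 4 weeks after the virus, 5 to 6 months after induction, and T2D was defined at 20 weeks of diet. Control mice had regular chow and no vector, so that diet, streptozotocin and virus cannot be told apart in comparisons with control. It is not stated in the labels if a group's 2 libraries are 2 animals, and the p-values below measure only the spread between libraries.

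Values are regularized log2 values (rlog), a log2 scale on which the differences of weakly expressed genes are drawn toward 0, and read depth is unknown because counts were not used here. The limma test took the 13094 genes whose mean rlog reached 5, and p-values were adjusted over all of them by the Benjamini-Hochberg method. A gene was called at an adjusted p under 0.05. With 2 libraries against 2, an exact permutation test of a single gene cannot give a p below 0.333. The cardiomyocyte gene Myh6 stood at 18.7 to 19.1 rlog in the 6 libraries labelled heart. In bulk tissue, fewer cells of a type and less RNA per cell cannot be told apart.

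Of the 45 genes, 43 entered the test. Psma8 had a mean rlog of 4.19 and Psmb11 was listed at 0 in all 6 libraries. Per kilobase of transcript (rlog minus log2 of the length in kilobases), the beta subunits had the highest median level of the 26S classes, 10.45, with a range of 9.10 for Psmb5 to 11.18 for Psmb6. The alpha subunits had a median of 9.84 per kilobase; Psma3 at 7.49 and Psma5 at 7.35 lay below the other 5, which began at 8.95. The ATPases were the tightest of these classes, at 9.55 to 10.45 per kilobase. The non-ATPase subunits ran between 7.61 for Psmd11, a lid subunit that links lid and base, and 10.20 for Psmd2, a scaffold of the base. The immunoproteasome subunits were lower than their constitutive counterparts, with Psmb10 at 8.54, Psmb8 at 7.53 and Psmb9 at 5.48 per kilobase, against 10.74 for Psmb7, 9.10 for Psmb5 and 11.18 for Psmb6. These values depend on the length of the transcript listed for each gene. Without the length, mean rlog was 8.91 for Psmb10, 8.23 for Psmb8 and 7.01 for Psmb9, against 10.93 for Psmb7, 8.94 for Psmb5 and 10.83 for Psmb6. Psme1 stood at 10.53 per kilobase and Psme4 at 10.64. Psme2 (7.90) and Psme2b (9.14) are uncertain, because their transcripts share 99.3% of 716 aligned bases and reads from either can be counted for the other.

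**Figure D1:**
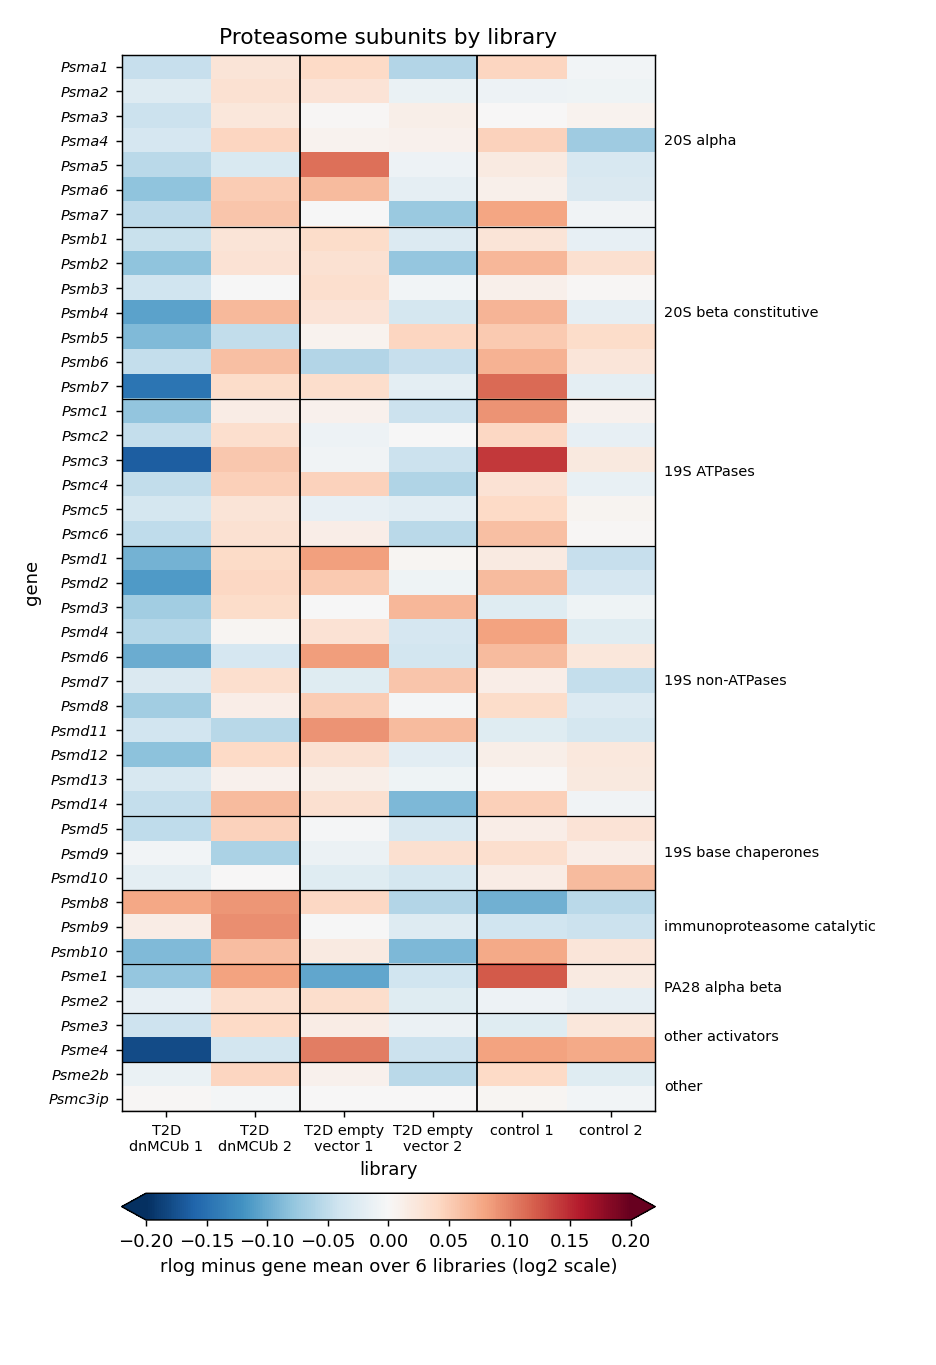
rlog of each of the 43 tested proteasome genes in each library less that gene's mean over the 6 libraries (log2 scale; colour shows the difference), genes in rows by class and libraries in columns, T2D dnMCUb, T2D empty vector and control in order. In the first T2D dnMCUb library most rows lie below their mean, and in the second most lie above it.

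No proteasome gene was called in any of the 3 comparisons. The question put by T2D dnMCUb against control is how hearts with both the disease model and the virus-borne dnMCUb differ from hearts with neither. There, limma called 0 of 43 genes, against 0.0687% of all genes tested, and 4 had an unadjusted p under 0.05, against 11.4%. The libraries of the groups did not overlap for 2 higher and 8 lower proteasome genes, against 20.2% higher and 22.7% lower of all genes. T2D dnMCUb against T2D empty vector compares the insert with its vector within diabetic hearts. It gave 0 calls, against 0% of all genes, and 1 unadjusted p under 0.05, against 5.64%; 3 genes were higher and 3 lower without overlap, against 15.6% and 16.5%. T2D empty vector against control gave 0 calls, against 0%, and 1 unadjusted p under 0.05, against 6.13%; 3 genes were higher and 8 lower without overlap, against 19.9% and 22.5%. In each comparison and direction, the share of the 43 proteasome genes without overlap was below that of all genes. Most of these genes shifted together between the libraries of a group, so they are not independent counts, and the shares were not tested. In the authors' deposited table, no proteasome gene had an adjusted p under 0.05 in any comparison, against 0.794% of all genes in T2D dnMCUb against control, 0.0611% in T2D dnMCUb against T2D empty vector and 0.542% in T2D empty vector against control. An unadjusted p under 0.05 in the authors' deposited table was listed for 1 proteasome gene (against 5.67% of all genes), 0 (against 1.82%) and 1 (against 4.33%) in the same comparisons.

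The 95% intervals of the limma fit are on the rlog scale. Over the genes the authors called, the rlog difference was a median of 0.465 to 0.582 of the log2 fold in the authors' deposited table, by comparison, so the intervals set no bound on unshrunken folds. The median half-width over the 31 constitutive 26S genes was 0.127 on the log2 scale. In T2D dnMCUb against control, the intervals of these genes ran from -0.32 at the low end (Psmc3, an ATPase) to 0.14 at the high end (Psma4). In T2D dnMCUb against T2D empty vector they ran from -0.23 (Psmb7) to 0.18 (Psmb6), and in T2D empty vector against control from -0.29 (Psmc3) to 0.20 (Psmd1). In each comparison 30 of the 31 intervals held 0. In the authors' deposited table, the log2 folds of these genes ran from -0.24 (Psmb5) to 0.03 (Psmd7) in T2D dnMCUb against control. Between the diabetic groups the authors' deposited table had -0.29 (Psma5) to 0.10 (Psmb6), and for T2D empty vector against control -0.17 (Psmc3) to 0.21 (Psmd11).

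**Figure D2:**
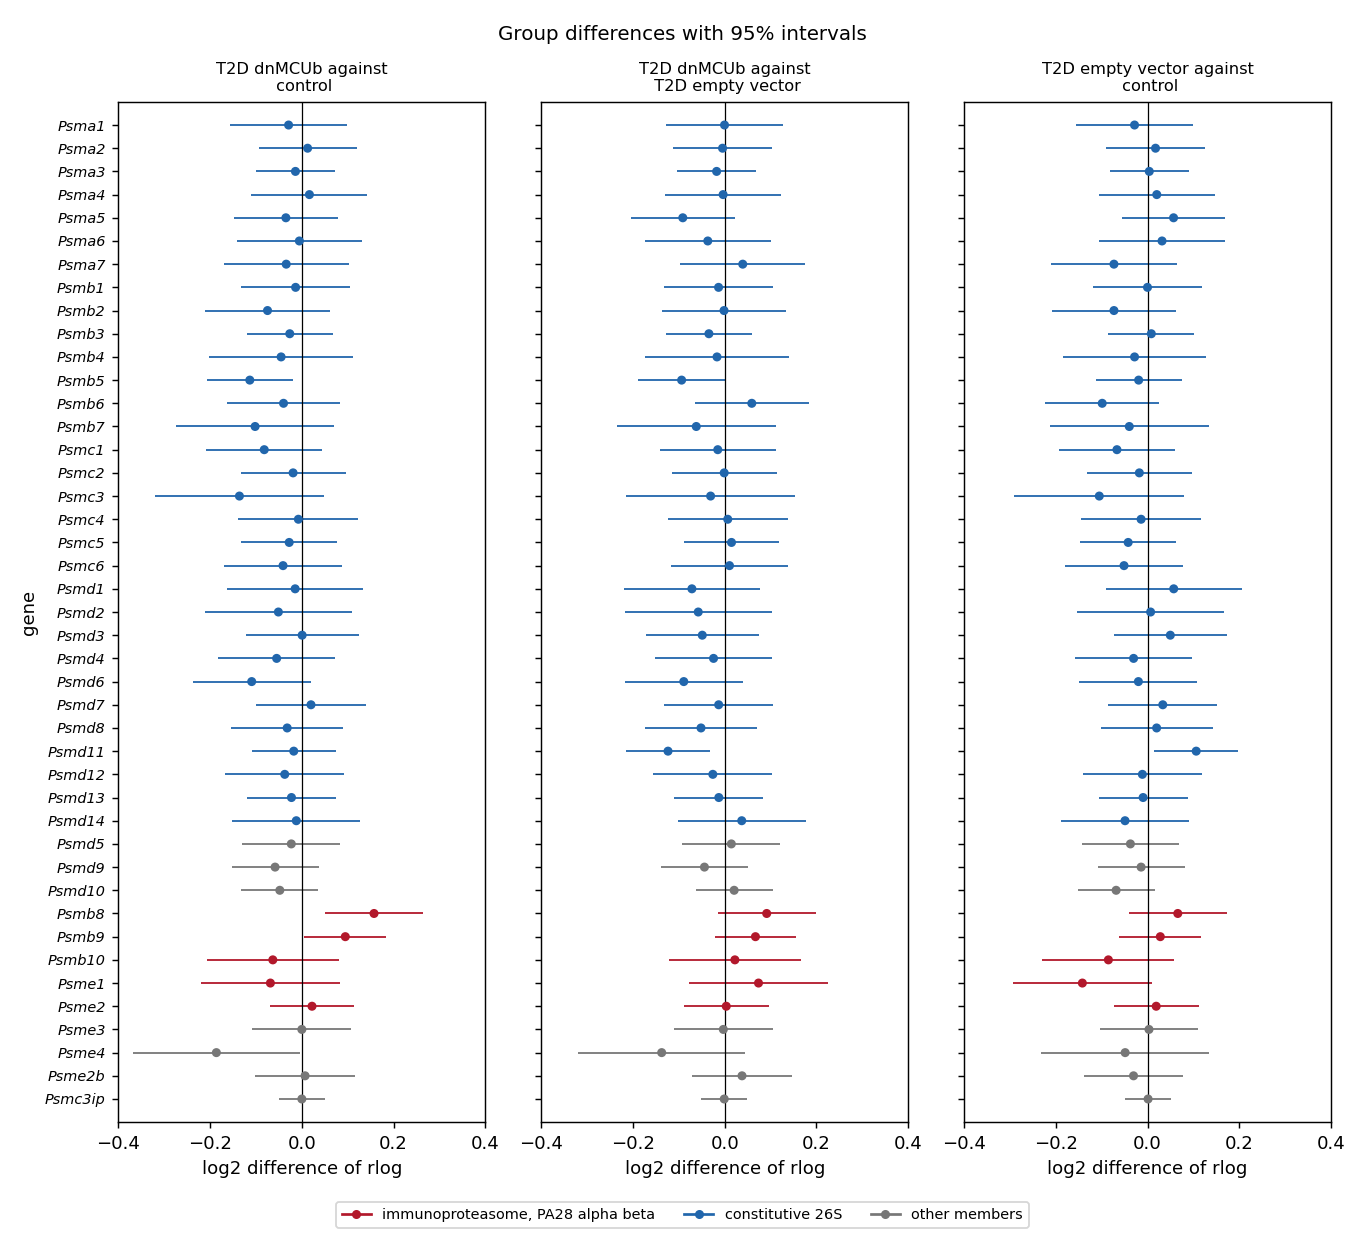
Difference of mean rlog between groups (log2 scale, points) with 95% limma intervals (bars) for the 43 tested proteasome genes, in 1 panel for each comparison, with each gene's class in colour. In T2D dnMCUb against control, Psmb8 lies farthest to the right at 0.16 and Psme4 farthest to the left at -0.19.

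The 3 catalytic sites were read as pairs of an immunoproteasome subunit and the constitutive subunit whose place it takes. Psmb8 (chr17:34197790-34201454, plus strand, GRCm38) encodes the chymotrypsin-like subunit of the immunoproteasome. It measured 8.30 and 8.32 rlog in T2D dnMCUb and 8.27 and 8.17 in T2D empty vector, against 8.13 and 8.17 in control. Both T2D dnMCUb libraries were above all 4 others, while T2D empty vector and control overlapped. The difference was 0.16 (SE 0.05) in T2D dnMCUb against control, with a limma adjusted p of 0.281, and 0.09 (SE 0.05) against T2D empty vector, with a limma adjusted p of 0.877. Psmb5 (chr14:54614119-54618022, minus strand) encodes its constitutive counterpart, the target of the drug bortezomib. It measured 8.85 and 8.89 in T2D dnMCUb and 8.95 and 8.98 in T2D empty vector, against 8.99 and 8.98 in control. Both T2D dnMCUb libraries were below all 4 others. The difference was -0.11 (SE 0.04) against control, with a limma adjusted p of 0.361, and -0.09 (SE 0.04) against T2D empty vector, with a limma adjusted p of 0.869. Neither gene passed the adjusted threshold.

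Within each library, Psmb8 minus Psmb5 was -0.55 and -0.58 in T2D dnMCUb and -0.68 and -0.82 in T2D empty vector, against -0.86 and -0.81 in control. The T2D dnMCUb libraries were above the other 4, and the mean was higher by 0.27 than in control and by 0.19 than in T2D empty vector, with no p below 0.333 available to an exact test on 2 against 2 libraries. These 2 genes were among those with the smallest p in this comparison, and the size of their contrast is a description. Shrinkage differs from gene to gene on the rlog scale, so a shift common to both genes need not cancel in such a pair. Psmb8 had a log2 fold of 0.40 in the authors' deposited table and Psmb5 one of -0.24 in T2D dnMCUb against control, and 0.23 and -0.20 in T2D dnMCUb against T2D empty vector.

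Psmb9 (chr17:34182033-34187353, minus strand) encodes the caspase-site replacement. It measured 7.02 and 7.10 in T2D dnMCUb and 7.0 and 6.98 in T2D empty vector, against 6.97 and 6.96 in control. The 3 groups did not overlap and stood in that order, T2D dnMCUb highest. The difference was 0.09 (SE 0.04) in T2D dnMCUb against control, with a limma adjusted p of 0.413. Between neighbouring groups it was 0.07 (SE 0.04, limma adjusted p = 0.888) in T2D dnMCUb against T2D empty vector. In T2D empty vector against control it was 0.03 (SE 0.04, limma adjusted p = 0.913). Psmb6, whose caspase-like site it replaces, measured 10.79 and 10.89 in T2D dnMCUb and 10.78 and 10.79 in T2D empty vector, against 10.90 and 10.86 in control. Its difference of -0.10 (SE 0.05) in T2D empty vector against control had a limma adjusted p of 0.830. Psmb9 minus Psmb6 was -3.77 and -3.80 in T2D dnMCUb and -3.77 and -3.81 in T2D empty vector, against -3.94 and -3.89 in control. On the rlog scale both diabetic groups lay above control and overlapped with each other, but Psmb9 is the weaker gene of the pair and the more shrunken. Psmb9 had a log2 fold in the authors' deposited table of 0.38 in T2D dnMCUb against control, 0.27 in T2D dnMCUb against T2D empty vector and 0.11 in T2D empty vector against control. The authors' deposited table gave Psmb6 -0.07, 0.10 and -0.16 in the same comparisons, so the size of this pair's differences depends on the scale.

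Psmb10 (chr8:105935739-105938444, minus strand) encodes the trypsin-site replacement. It measured 8.82 and 8.97 in T2D dnMCUb and 8.93 and 8.82 in T2D empty vector, against 8.98 and 8.93 in control. The T2D dnMCUb libraries overlapped with both other groups. Psmb7, whose trypsin-like site it replaces, measured 10.79 and 10.97 in T2D dnMCUb and 10.97 and 10.91 in T2D empty vector, against 11.05 and 10.91 in control. Psmb10 minus Psmb7 was -1.96 and -2.0 in T2D dnMCUb and -2.04 and -2.09 in T2D empty vector, against -2.06 and -1.98 in control, so T2D dnMCUb lay above T2D empty vector and both overlapped with control. Differences between the 3 sites were not tested.

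**Figure D3:**
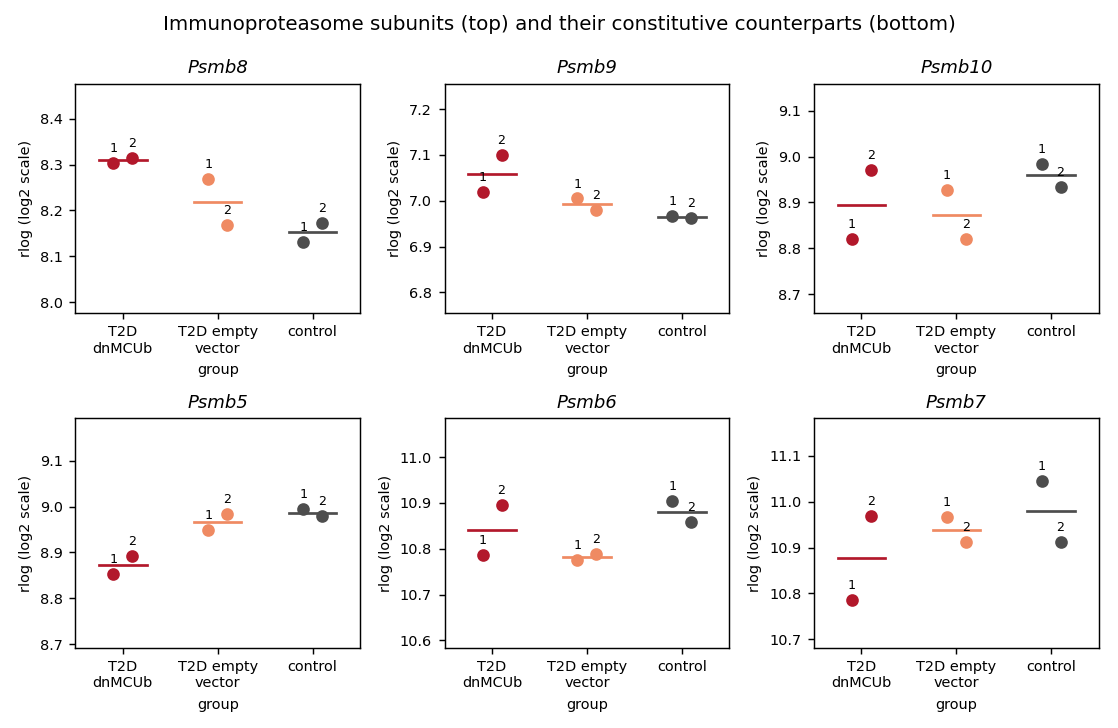
rlog (log2 scale) of the immunoproteasome subunits in the top row and of the constitutive subunit of the same catalytic site below each, by group, where points are libraries with their number, lines are group means and the vertical axes do not start at 0. Both T2D dnMCUb points of Psmb8, at 8.30 and 8.32, lie above the other 4, and both of Psmb5, at 8.85 and 8.89, lie below the other 4.

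Immune cell markers were measured beside these genes, and none was called. Of all genes, 0.0687% were called in T2D dnMCUb against control and 0% in the other comparisons. The mean of 8 macrophage markers, as a difference from the mean over libraries, was 0.17 and 0.03 in T2D dnMCUb and 0.0039 and -0.06 in T2D empty vector, against -0.05 and -0.09 in control, and all 8 were higher in T2D dnMCUb than in control, as were 48.5% of all genes. Of the 8, 4 had an unadjusted p under 0.05 in that comparison, against 11.4% of all genes, and the smallest limma adjusted p was 0.160. The log2 of their summed level was 12.71 and 12.55 in T2D dnMCUb and 12.54 and 12.47 in T2D empty vector, against 12.47 and 12.45 in control. Ptprc, the leukocyte common antigen, measured 8.61 and 8.49 in T2D dnMCUb and 8.55 and 8.44 in T2D empty vector, against 8.42 and 8.31 in control, and no marker of the macrophage list was at 0. Their part in the Psmb8 and Psmb9 values was not tested.

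The genes of the class I locus give the setting of this pair. Psmb9, Tap1, Psmb8 and Tap2 lie next to each other on chromosome 17, with 448 bases between Psmb9 and Tap1, 570 between Tap1 and Psmb8 and 2072 between Psmb8 and Tap2. Tap1, a subunit of the transporter that carries proteasome products into the endoplasmic reticulum, measured 7.87 and 7.83 in T2D dnMCUb and 7.77 and 7.75 in T2D empty vector, against 7.77 and 7.65 in control. Both T2D dnMCUb libraries were above the other 4, and the difference from control was 0.14 (SE 0.05, limma adjusted p = 0.331). Of 13 genes of class I antigen processing, 11 were higher and 2 lower in T2D dnMCUb than in control, where 48.5% of all genes were higher, with a median difference of 0.11. None was called, against 0.0687% of all genes, and 6 had an unadjusted p under 0.05, against 11.4%. The smallest limma adjusted p among them was 0.0576, for H2-K1 and B2m. H2-K1, a class I heavy chain, was at 11.48 and 11.51 in T2D dnMCUb and 11.26 and 11.23 in T2D empty vector, against 11.16 and 11.13 in control. Its difference from control was 0.35 (SE 0.05), beside 0.16 for Psmb8, a weaker gene whose difference is more shrunken on the rlog scale. Log2 folds in the authors' deposited table were 0.54 for H2-K1 and 0.40 for Psmb8. The authors' deposited table listed an adjusted p of 0.00334 for H2-K1 and 0.00112 for B2m, the class I light chain, in that comparison.

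The RefSeq start windows (250 bases before to 50 after the start, GRCm38.p6) of Psmb8, Psmb9 and Psmb5 are shown because, among proteasome genes, Psmb8 and Psmb9 had the smallest p of the higher and Psmb5 of the lower in T2D dnMCUb against control. Capitals mark matches to the search letters, and positions count from the RefSeq start, whose first base is 1. In the Psmb8 window (chr17:34197945-34198244, plus strand), the capitals are a match to the interferon-response GAS core TTCNNNGAA at -97 to -89 and to the antioxidant-response core TGANNNNGC at 24 to 32. In the Psmb9 window (chr17:34187281-34187580, minus strand), they are TGANNNNGC at -60 to -52 and, on the other strand, the CCAAT box at -8 to -4. The RefSeq start used here lies 405 bases downstream of the deposited start for Psmb8, so that its window is inside the deposited gene, 23 for Psmb9 and 27 for Psmb5. The Psmb9 window shares 275 bases with that of Tap1, which is read in the opposite direction. In the Psmb5 window (chr14:54617946-54618245, minus strand), both are TGANNNNGC, at -47 to -39 and at 42 to 50. Of the TGANNNNGC matches shown, only that of Psmb5 at -47 to -39 has C after TGA.
Psmb8: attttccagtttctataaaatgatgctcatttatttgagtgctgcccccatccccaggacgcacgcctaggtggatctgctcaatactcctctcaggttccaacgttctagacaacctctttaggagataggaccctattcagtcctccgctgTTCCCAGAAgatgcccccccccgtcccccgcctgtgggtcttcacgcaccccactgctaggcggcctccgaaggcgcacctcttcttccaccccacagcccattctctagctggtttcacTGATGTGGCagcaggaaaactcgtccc
Psmb9: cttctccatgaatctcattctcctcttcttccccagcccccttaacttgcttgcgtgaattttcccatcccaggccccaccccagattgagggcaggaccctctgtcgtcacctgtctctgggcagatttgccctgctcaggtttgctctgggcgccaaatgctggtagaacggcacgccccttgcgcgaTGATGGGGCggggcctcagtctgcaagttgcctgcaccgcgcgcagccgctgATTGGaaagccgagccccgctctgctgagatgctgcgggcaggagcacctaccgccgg
Psmb5: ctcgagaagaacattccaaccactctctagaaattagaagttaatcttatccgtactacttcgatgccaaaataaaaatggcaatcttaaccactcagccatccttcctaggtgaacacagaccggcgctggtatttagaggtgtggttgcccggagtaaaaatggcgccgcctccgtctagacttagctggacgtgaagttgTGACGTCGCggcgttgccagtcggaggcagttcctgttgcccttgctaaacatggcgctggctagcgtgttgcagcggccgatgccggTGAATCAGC

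Windows were found for 38 of the 45 genes. Searched on both strands, the GAS core was in 2 of the 38, Psmb8 and Psmd2, against 8.30% of all 32851 windows. The core of the interferon-stimulated response element, taken as GAAA, any 2 bases and GAAA again, was in 4 (Psmb3, Psmd4, Psmd9 and Psme1), against 3.44%. The antioxidant-response core was in 22, against 41.3%, and CCAAT in 15, against 37.4%. These matches are descriptions of letters and not of binding.

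Psme1 and Psme2 encode PA28 alpha and beta, the ring that opens the core for short peptides. Psme1 (chr14:55578575-55581381, plus strand) measured 9.91 and 10.07 in T2D dnMCUb and 9.89 and 9.95 in T2D empty vector, against 10.11 and 10.01 in control. Both T2D empty vector libraries were below both control libraries, and T2D dnMCUb overlapped with each. The difference of T2D empty vector against control was -0.14 (SE 0.07, limma adjusted p = 0.805), and the authors' deposited table gave it a p of 0.0402, the only member with a p under 0.05 in that comparison. Psme2, its partner 6060 bases away, measured 7.51 and 7.56 in T2D dnMCUb and 7.56 and 7.50 in T2D empty vector, against 7.52 and 7.51 in control, with all groups overlapping. As a class the 5 immunoproteasome and PA28 genes had a median difference of 0.07 in T2D dnMCUb against T2D empty vector. There 5 of 5 were higher, against 49.5% of all genes. The count was 2 of 5 without T2D dnMCUb replicate 2 and 3 of 5 without T2D empty vector replicate 2.

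Psme4 (chr11:30771726-30880361, plus strand) encodes PA200, a large activator that caps the core. It measured 13.14 and 13.28 in T2D dnMCUb and 13.42 and 13.28 in T2D empty vector, against 13.40 and 13.40 in control. Both T2D dnMCUb libraries lay below both control libraries, and T2D empty vector overlapped with T2D dnMCUb. The difference from control was -0.19 (SE 0.08, limma adjusted p = 0.424), the lowest of the proteasome genes, and the authors' deposited table gave p = 0.0227 and adjusted p = 0.702. Psme3, PA28 gamma of the nucleus, ran between 9.33 and 9.41 over the 6 libraries, and its groups overlapped in every comparison.

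Within the constitutive 26S, Psmd11 (chr11:80428625-80473248, plus strand) was highest in T2D empty vector. It measured 9.07 and 9.05 in T2D dnMCUb and 9.19 and 9.17 in T2D empty vector, against 9.08 and 9.07 in control. The T2D empty vector libraries stood above the other 4, whose range was narrow. The difference was -0.12 (SE 0.04, limma adjusted p = 0.820) in T2D dnMCUb against T2D empty vector and 0.11 (SE 0.04, limma adjusted p = 0.805) in T2D empty vector against control. Psmd6, a lid subunit, measured 10.14 and 10.21 in T2D dnMCUb and 10.32 and 10.20 in T2D empty vector, against 10.30 and 10.26 in control, a difference of -0.11 (SE 0.06, limma adjusted p = 0.491) against control. Psma5, an alpha ring subunit, measured 7.58 and 7.61 in T2D dnMCUb and 7.75 and 7.63 in T2D empty vector, against 7.66 and 7.60 in control, and its difference between the diabetic groups was -0.09 (SE 0.05, limma adjusted p = 0.881). Psmc3, an ATPase of the base, had the widest spread of the 45 genes over libraries, 0.307, with 11.13 and 11.34 in T2D dnMCUb and 11.28 and 11.25 in T2D empty vector, against 11.43 and 11.31 in control. Psmd3, a lid scaffold, was 0.05 higher in T2D empty vector than in control (limma adjusted p = 0.890), and Psmd7, the inactive partner of the deubiquitinase Psmd14, was 0.02 higher in T2D dnMCUb than in control (limma adjusted p = 0.893). Psmd10, the chaperone gankyrin, had a difference of -0.07 in T2D empty vector against control (SE 0.04, limma adjusted p = 0.823).

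The direction of the constitutive 26S genes as a whole turned on single libraries. Of the 31, 27 were lower in T2D dnMCUb than in control, against 51.5% of all genes, with a median difference of -0.03. Without T2D dnMCUb replicate 1, 12 of 31 were lower, and without T2D dnMCUb replicate 2, 31 of 31. Without control replicate 1 the count was 20 and without control replicate 2 it was 29. In T2D dnMCUb against T2D empty vector, 25 of 31 were lower, against 50.5% of all genes, and 7 were lower without T2D dnMCUb replicate 1 and 16 without T2D empty vector replicate 1. In T2D empty vector against control, 19 of 31 were lower, against 51.8% of all genes, and 12 were lower without control replicate 1 or without T2D empty vector replicate 2. Without control replicate 2 the count was 22, and without T2D empty vector replicate 1 it was 25. By class, all 7 beta subunits and all 6 ATPases were lower in T2D dnMCUb than in control, as were 5 of 7 alpha subunits and 9 of 11 non-ATPase subunits.

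Between the libraries of a group the constitutive 26S genes mostly differed in the same direction. In T2D dnMCUb, 30 of the 31 were lower in library 1 than in library 2, the exception being Psmd11, with a median difference of -0.08; of all genes tested, 54.3% were lower. In T2D empty vector, 7 of 31 were lower in library 1, against 48.3% of all genes, with a median difference of 0.05. In control, 5 of 31 were lower in library 1, against 48.9%, with a median difference of 0.05. The numbers only name the libraries, and the sign of these differences has no meaning of its own. Of genes with a mean rlog of 7 to 12, 57.5% were lower in library 1 in T2D dnMCUb, 47.5% in T2D empty vector and 49.4% in control. The median SD of the 26S genes within a group was 0.0576 in T2D dnMCUb, 0.0430 in T2D empty vector and 0.0345 in control. For all genes it was 0.0413, 0.030 and 0.0274. All genes include weaker ones, whose differences are drawn toward 0 on this scale, so these SDs are not matched for level.

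Marker levels of heart cells differed between the same libraries. The mean of 6 ventricular cardiomyocyte markers was -0.21 and 0.02 in T2D dnMCUb and -0.01 and -0.03 in T2D empty vector, against 0.13 and 0.08 in control, as a difference from the mean over libraries. The mean of the 31 constitutive 26S genes was -0.07 and 0.02 in T2D dnMCUb and 0.03 and -0.02 in T2D empty vector, against 0.04 and -0.01 in control. The T2D dnMCUb library with the lowest 26S mean was also the lowest for ventricular markers. It was the highest for the 4 atrial markers, at 1.34 against -0.62 in the other T2D dnMCUb library, -0.59 and -0.41 in T2D empty vector, against 0.70 and -0.42 in control, and it was the highest for the 4 fibroblast markers, at 0.36. The mean of 4 endothelial markers was 0.05 and -0.08 in T2D dnMCUb. In T2D empty vector the endothelial mean was -0.02 and 0.02, against -0.04 and 0.06 in control. The mean of 5 red cell markers was 0.21 and 0.69 in T2D dnMCUb and -0.45 and -0.41 in T2D empty vector, against 0.38 and -0.42 in control. In T2D dnMCUb against T2D empty vector, all 5 were higher without overlap, against 15.6% of all genes. Their differences were 0.69 to 1.13 on the rlog scale, with a smallest limma adjusted p of 0.780. These 5 genes varied together over the libraries and are not separate observations. In the authors' deposited table the adjusted p was 7.63e-11 for Hba-a2 and 0.00715 for Hbb-bs, both globin genes, in that comparison. The part of these markers in the proteasome values was not tested.

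**Figure D4:**
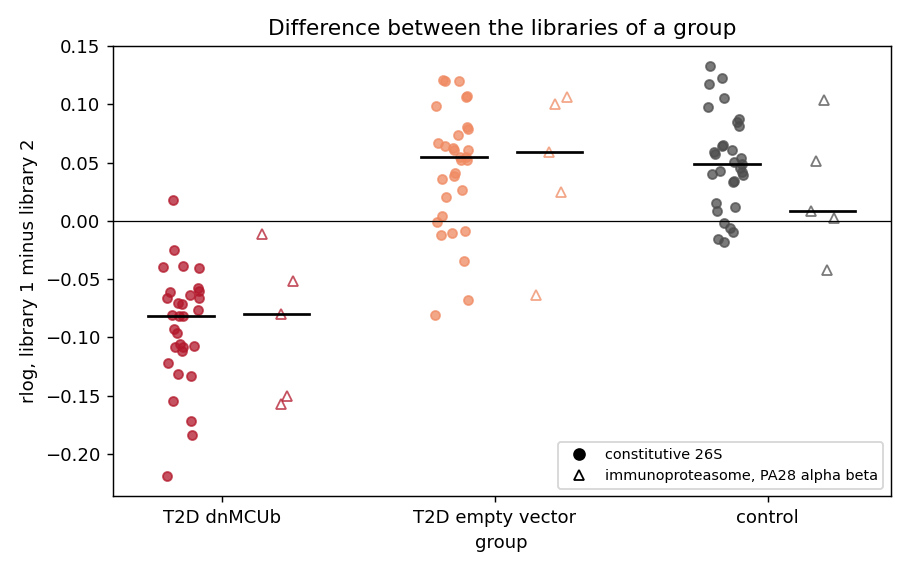
Difference in rlog between library 1 and library 2 of a group (log2 scale) in T2D dnMCUb, T2D empty vector and control, where circles are the 31 constitutive 26S genes, triangles the 5 immunoproteasome and PA28 genes and lines their medians. Of the constitutive 26S genes, 30 of 31 lie below 0 in T2D dnMCUb, 7 of 31 in T2D empty vector and 5 of 31 in control.

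The genes that build and control the proteasome were read beside the subunits. Of 11 assembly chaperones and regulators, 3 were higher and 8 lower in T2D dnMCUb than in control, where 51.5% of all genes were lower. None was called, against 0.0687% of all genes. Pomp, the chaperone that completes the core, measured 10.06 and 10.05 in T2D dnMCUb and 10.12 and 10.05 in T2D empty vector, against 10.21 and 10.23 in control. Both diabetic groups lay below control, with differences of -0.16 (SE 0.05, limma adjusted p = 0.260) in T2D dnMCUb and -0.13 (SE 0.05, limma adjusted p = 0.778) in T2D empty vector. Of 8 genes of transcriptional control and processing, 5 were higher and 3 lower in T2D dnMCUb than in control, against 48.5% of all genes higher. Nfe2l1, a factor that restores proteasome genes after inhibition, measured 13.32 and 13.47 in T2D dnMCUb and 13.46 and 13.48 in T2D empty vector, against 13.31 and 13.30 in control, and its difference of 0.17 (SE 0.07) in T2D empty vector against control had a limma adjusted p of 0.805. Of 5 tested genes of ubiquitin and its activation, 1 was higher and 4 were lower in T2D empty vector than in control. Of all genes, 51.8% were lower there. The higher one was Ubb, a polyubiquitin gene, by 0.13 (SE 0.05, limma adjusted p = 0.805).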

How the data were processed

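Members and lists were chosen with earlier results of these data known. RNA from 6 mouse heart libraries in 3 groups of 2 was sequenced. Per the submitters' processing notes, the authors used bcl2fastq 2.20.0.422, STAR 2.5.2a and DESeq2, with GRCm38, mm10 and hg38 named as builds; the role of each build and the counting program are not stated. The deposited rlog values are on a log2 scale, and the authors' deposited tables also give log2 fold changes, p-values and transcript lengths. No counts were used, so depth is unknown and counting error cannot be given.

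The deposited rlog values were fitted with limma 3.58.1 (R 4.3.3) as 3 groups, with a variance trend, on genes with mean rlog of at least 5, and p-values were adjusted over all 13094. Residual degrees of freedom were 3. The fit was also run on simulated data, where genes varied independently and the added shifts exceeded every proteasome difference seen here. That run does not show how the fit handles small shifts or genes that vary together. Named members are the catalytic pairs, the activators and the 4 genes per direction with the smallest p. Coordinates are those of the deposited tables (GRCm38); 44 of 45 positions were found in GENCODE M21, whose exon sums exceed the deposited lengths by up to 2.95%. Alternatives were another filter, no filter, no trend, libraries centred on their median, 2 groups only, each library left out and a replicate block. Same-numbered libraries did not deviate together, so equal numbers do not pair them. The correlation was -0.0133 in T2D dnMCUb against control and -0.0876 in T2D empty vector against control. It was -0.511 in T2D dnMCUb against T2D empty vector, where opposite-numbered libraries of the 2 groups therefore deviated together. Left out were 4 pseudogenes, Psmb5-ps, Psmb6-ps, Psmb6-ps2 and Psmb7-ps2, named after the constitutive catalytic subunits. Their mean rlog was 2.33, -1.37, 4.38 and 1.80 in that order. Reads that could map both to them and to Psmb5, Psmb6 or Psmb7 were not examined.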

Additional observations from a re-analysis of the deposited data

How the results depend on the processing

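No proteasome gene was called under any alternative run. The constitutive 26S medians over the fits that left out 1 library ran from -0.0711 to 0.0143 in T2D dnMCUb against control, from -0.0544 to 0.0287 in T2D dnMCUb against T2D empty vector and from -0.0389 to 0.0115 in T2D empty vector against control. Those of the immunoproteasome and PA28 genes ran from -0.0035 to 0.0477, from -0.0051 to 0.0971 and from -0.0110 to 0.0403 in the same order. At a mean rlog of at least 8, which leaves fewer genes, these immunoproteasome and PA28 medians were -0.0633 in T2D dnMCUb against control and -0.0855 in T2D empty vector against control. Counting unadjusted p under 0.05 gave 4, 1 and 1 proteasome genes in T2D dnMCUb against control, T2D dnMCUb against T2D empty vector and T2D empty vector against control. Over all genes, limma called 9 in T2D dnMCUb against control and 0 with no filter, the higher filter, 2 groups only, no trend, centring or the replicate block; T2D empty vector against control gave 30 with 2 groups only; the cause was not tested. Leaving out 1 library gave 0 to 743 genes, 0 to 14 and 0 to 30 in the order above. With the replicate block, 0 proteasome genes and 0 of all genes were called in each comparison, and with the numbers crossed in T2D dnMCUb the counts against T2D empty vector were again 0 and 0. The spread between 2 libraries limits every value.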
